A study of Mus musculus with 6 samples.

Results

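The genes described here are 37 genes that are typical of endothelial cells, the cells that line blood vessels, and their values were read in the RNA of sorted quiescent muscle stem cells (qMuSCs). The genes were taken from a list of names that was chosen with earlier results of these data known. A gene was kept where its counts summed over 6 mice came to 10 or more. Of the 37 listed genes, out of 31053 genes in the count table, 33 were kept. The 4 others were Erg, Sox7, Sox18 and Cyyr1, with 5, 6, 2 and 5 counts in all mice together. Of the 33 genes kept, 29 were among the 11633 genes that passed the expression minimum of the test, a mean of DESeq2-normalized counts above 10. Tie1, Sox17, Nos3 and Bmx were kept but not tested.

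The RNA came from hindlimb qMuSCs of 3 WT mice, named c124, c129 and c130, and of 3 mice with the deletion (cD2KO), named fl125, fl126 and fl128, aged 3 to 4 months, with 1 library per mouse. All 6 mice carried Pax7nGFP/+, a nuclear GFP under control of Pax7 by which the cells were sorted, and floxed Dio2 alleles (Dio2Fl/Fl), and all received tamoxifen. In addition, cD2KO mice had the allele Pax7-CreERT2/+, which gives a tamoxifen-dependent recombinase in cells that express Pax7, where the WT mice were Pax7+/+, so the effects of Cre and of Dio2 deletion cannot be told apart. Dio2 encodes the type 2 deiodinase (D2), which activates thyroid hormone. The comparison asks what the loss of D2 changes in the RNA of resting stem cells.

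Endothelial cells respond to vascular endothelial growth factor (VEGF) and angiopoietins, which control the growth and stability of vessels. They are joined by vascular endothelial cadherin and claudins, and in muscle capillaries they take up fatty acids for the fibers. The recombinase is made in cells that express Pax7, a marker of muscle stem cells, and whether it acted in endothelial cells was not tested. In these bulk samples fewer endothelial cells and less endothelial RNA per cell cannot be told apart, nor can RNA of endothelial cells be told apart from RNA of the same genes in qMuSCs.

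Total counts ran from 2184073 to 3897787 per mouse, and 3 counts, taken as the level below which a gene is not told apart from 0 by counting error alone, equalled 0.768 to 1.36 CPM (counts scaled to a library of 1e+06). The library of fl125 stood apart from the others on the first principal component (45.1% of the variance), at 72.6 against -50.7 to 7.52 in the other mice. Dio2 had 21, 5 and 10 counts in WT (c124, c129, c130) and 15, 5 and 1 counts in cD2KO (fl125, fl126, fl128), the order kept throughout. The library labelled fl125 thus held the highest Dio2 level of all mice, 6.79 CPM, so the deletion is not visible in it. Nor is it clear in fl126, at 1.71 CPM beside 1.85 CPM in WT mouse c129, with 5 counts in each. In fl128 the level was 0.314 CPM, from 1 count. Reads outside the floxed part are counted as well. The stem cell marker Pax7 was present in every mouse, between 211.5 and 687.4 CPM.

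The promoters of the 4 receptor tyrosine kinases of the list are shown because Flt1 and Kdr passed the test below, Tek did not, and Tie1 had too few counts to be tested. Flt1 and Kdr bind VEGF, Tek binds angiopoietins, and Tie1 is the partner of Tek. Each sequence runs from 250 bases before to 50 bases after the RefSeq start in GRCm38.p6, the assembly also called mm10, and capitals mark the letters CCGGAA or AGGAAG on either strand, 2 hexamers around the core GGAA of ETS transcription factors, a family that includes Erg.
Flt1, chr5:147725962-147726261, minus strand: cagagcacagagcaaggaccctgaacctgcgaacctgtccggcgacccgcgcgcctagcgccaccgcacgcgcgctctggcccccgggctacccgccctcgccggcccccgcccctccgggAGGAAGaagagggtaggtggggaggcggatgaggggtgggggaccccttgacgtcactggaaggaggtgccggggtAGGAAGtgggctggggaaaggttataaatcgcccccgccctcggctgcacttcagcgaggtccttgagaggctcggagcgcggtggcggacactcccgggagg
Kdr, chr5:75978406-75978705, minus strand: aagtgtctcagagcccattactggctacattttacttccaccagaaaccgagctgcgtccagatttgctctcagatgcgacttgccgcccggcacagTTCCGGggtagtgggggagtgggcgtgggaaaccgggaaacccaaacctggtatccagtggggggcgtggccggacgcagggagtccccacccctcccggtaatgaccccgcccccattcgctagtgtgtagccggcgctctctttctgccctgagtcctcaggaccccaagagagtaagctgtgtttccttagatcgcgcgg
Tek, chr4:94739039-94739338, plus strand: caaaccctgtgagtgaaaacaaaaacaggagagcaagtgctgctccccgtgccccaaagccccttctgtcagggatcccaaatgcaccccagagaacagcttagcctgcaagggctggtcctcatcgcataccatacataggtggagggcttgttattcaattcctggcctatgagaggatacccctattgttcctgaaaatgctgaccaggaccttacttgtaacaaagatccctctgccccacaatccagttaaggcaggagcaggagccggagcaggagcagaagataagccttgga
Tie1, chr4:118489800-118490099, minus strand: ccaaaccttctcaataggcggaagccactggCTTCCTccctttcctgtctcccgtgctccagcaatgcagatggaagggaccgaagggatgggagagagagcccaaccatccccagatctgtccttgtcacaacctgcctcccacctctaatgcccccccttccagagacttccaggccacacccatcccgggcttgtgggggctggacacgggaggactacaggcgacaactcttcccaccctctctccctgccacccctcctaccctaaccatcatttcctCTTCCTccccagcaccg

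The Flt1 promoter held AGGAAG at 2 places, from -129 to -124 and from -53 to -48 relative to the start. In the Kdr promoter CCGGAA was found on the opposite strand from -153 to -148. The Tie1 promoter held AGGAAG at 2 places on the opposite strand, and the Tek promoter held neither hexamer. RefSeq promoters were at hand for 19 of the 37 genes, with 25 starts. Of these 25 promoters, 60% held AGGAAG and 8% held CCGGAA, where 35.4% and 14.9% of all 32851 promoters did. These matches describe the letters in the window and not binding.

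Endothelial genes such as Flt1, Kdr, Pecam1 and Cldn5 were lower in the cD2KO libraries, and no endothelial gene was higher by the test. By edgeR's quasi-likelihood test, with an unadjusted p under 0.05 as the threshold, 16 of the 29 tested genes (55.2%) were lower, where 6.62% of all genes tested were, and 0 were higher, where 5.34% of all genes were. The Wald test of DESeq2 gave 16 lower and 0 higher, and limma voom 13 lower and 0 higher. After Benjamini-Hochberg adjustment across the 11633 genes, edgeR's test left Flt1 and Podxl with an adjusted p under 0.1, 2 of 29 genes against 0.490% of all genes. With 0.05 as the limit of the adjusted p, edgeR's test called 0 of the 29 genes, limma voom 0 and DESeq2 12, so the strength of the evidence depended on the tool. The median log2 fold change of the 29 genes was -1.24, where that of all genes tested was -0.02, and it ranged from -3.62 for Adgrl4 to 0.32 for Esam.

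In 13 of the 29 genes (44.8%) all cD2KO mice lay below all WT mice, where 10.04% of all genes did so. Esam was the 1 gene whose cD2KO mice all lay above the WT mice, where 8.05% of all genes did so, and with counts scaled to the total count 0 genes did. The mice of a group were not alike. WT mouse c124 was the lowest of the WT mice in 25 of the 29 genes and overlapped the cD2KO mice in 16, and cD2KO mouse fl128 overlapped the WT mice in 15. Without c124, 21 of 30 tested genes were lower, where 7% of all genes tested in that fit were. In 21 of the 30 all cD2KO mice lay below the remaining WT mice, where 17.2% of all genes did so, a share that is higher with fewer mice and cannot be set against that of all 6. Without fl128 20 of 30 genes were lower, where 5.81% of all genes were. Without fl125, the library that stood apart, 16 of 30 were lower, where 7.43% of all genes were, and their median log2 fold change was -1.39.

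**Figure D1:**
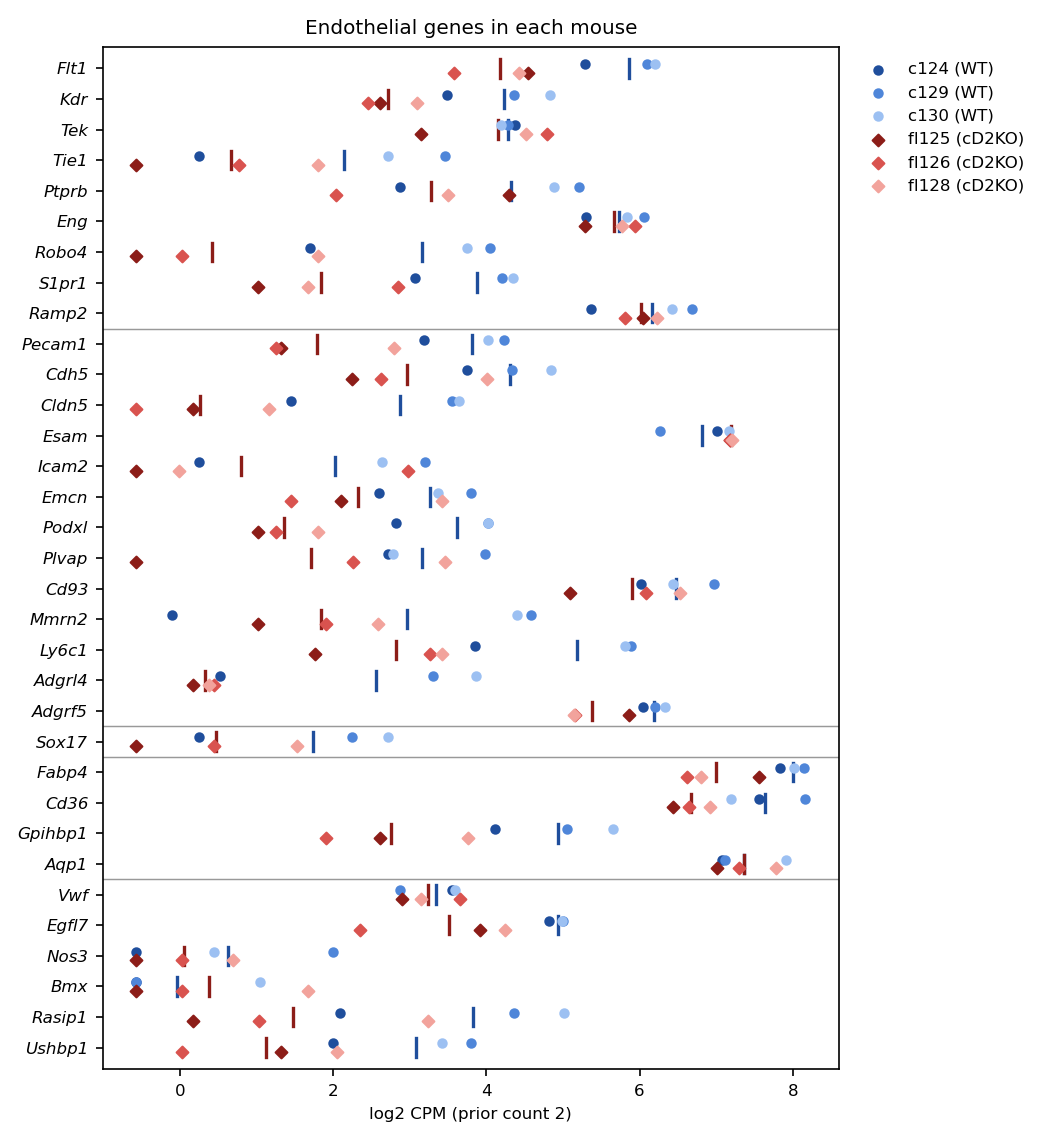
Level of the 33 endothelial genes kept in each mouse, as log2 CPM with a prior count of 2, grouped by role (receptors, junction and surface proteins, transcription factors, transport, secreted and signaling proteins, separated by lines). Circles are WT mice, diamonds are cD2KO mice and vertical bars are group means; c124 was the lowest WT mouse in 25 of the 29 tested genes.

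Among the receptors, 4 of the 8 tested genes were lower in the cD2KO libraries and the median log2 fold change was -1.39. For comparison with this count and those of the other roles below, 6.62% of all genes tested were lower and 5.34% higher. Flt1 (ENSMUSG00000029648), which encodes VEGF receptor 1, is found at 147561604 to 147726011 on chromosome 5 of mm10, minus strand. It had 150, 184 and 210 counts in WT and 50, 33 and 66 counts in cD2KO. Per library size, Flt1 was at 38.4, 67.9 and 72.7 in WT and at 22.6, 11.3 and 20.7 CPM in cD2KO. The highest cD2KO mouse was below the lowest WT mouse. The Flt1 level fell from 59.7 ± 18.6 to 18.2 ± 6.08 CPM (SD, n = 3 mice each), which was -1.71 as a log2 fold change (SE, standard error, 0.33; adjusted p = 0.0885 by edgeR). Flt1 had the smallest p of the 29 genes, and its log2 fold change stayed between -1.95 and -1.46 with each mouse left out in turn.

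Kdr (ENSMUSG00000062960, minus strand of chromosome 5 from 75932827 to 75978458) encodes VEGF receptor 2, the main signaling receptor for VEGF. Its level was 10.5, 19.9 and 27.7 CPM in the WT mice and 5.43, 4.79 and 7.85 CPM in the cD2KO mice. The groups did not overlap, but c124 was closer to the cD2KO mice than to c130. The log2 fold change of Kdr was -1.66 (SE 0.44, edgeR adjusted p = 0.132). S1pr1, the receptor for sphingosine-1-phosphate that stabilizes vessels, was at 7.68, 17.7 and 19.7 in WT and 1.36, 6.50 and 2.51 CPM in cD2KO. Its groups did not overlap either, with a log2 fold change of -2.07 (SE 0.58, edgeR adjusted p = 0.151).

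Robo4, a receptor that restrains vessel leakage, had 10, 43 and 37 counts in WT and 0, 1 and 9 counts in cD2KO. In CPM it was at 2.56, 15.9 and 12.8 in WT and at 0, 0.342 and 2.83 in cD2KO, so that fl128 overlapped c124. The log2 fold change was -3.12 (SE 0.95, edgeR adjusted p = 0.190). Because few counts stand behind it, the ratio of the pooled counts is given too, 7.87 with an exact 95% interval of 4.09 to 17 that covers counting error only.

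The angiopoietin receptor Tek was not called in either direction, and its difference from the VEGF receptors was not tested. Its log2 fold change was 0.04 (SE 0.39), and the WT mice, between 17.6 and 20.0 CPM, lay within the range of the cD2KO mice, 8.15 to 27.0 CPM. Eng, a coreceptor of the TGF-β family, and Ramp2, a partner of the adrenomedullin receptor, had log2 fold changes of -0.06 and -0.22 and were between 38.5 and 102.3 CPM in all mice. Ptprb, the phosphatase that acts on Tek, had a log2 fold change of -1.12 with a standard error of 0.71. None of these 4 genes passed the threshold. Ramp2 shares 33.4% of its exon bases with Vps25 on the same strand, so a part of its reads is uncertain. Tie1 had 2, 28 and 17 counts in WT and 0, 3 and 9 in cD2KO, and c124 lay within the cD2KO range. With the expression minimum lowered to 10 counts in all, Tie1 had a log2 fold change of -1.98 (SE 1.07, edgeR adjusted p = 0.519).

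**Figure D2:**
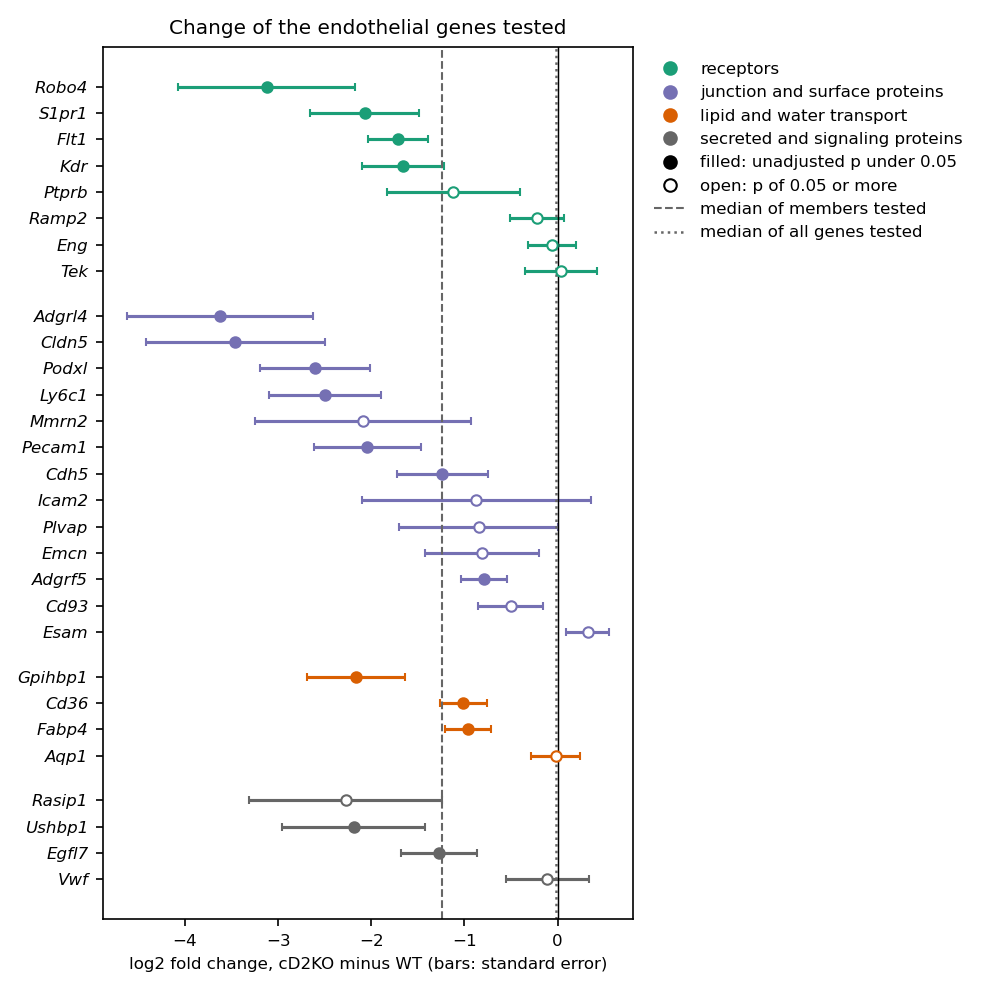
Log2 fold change (cD2KO minus WT) of the 29 endothelial genes tested, with standard errors, grouped by role. Filled points had an unadjusted p under 0.05, the dashed line is the median of the 29 genes, -1.24, and the dotted line that of all genes tested, -0.02; Tek, Eng, Ramp2, Aqp1 and Vwf lie near 0.

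Of the 13 junction and surface proteins, all tested, 7 were lower in cD2KO, 0 were higher, and the median log2 fold change was -1.24. Pecam1 encodes the adhesion molecule CD31, a standard endothelial marker that some blood cells carry too. It was at 8.45, 18.1 and 15.6 in WT and at 1.81, 1.71 and 6.28 CPM in the cD2KO mice. The groups did not overlap, and the log2 fold change of Pecam1 was -2.04 (SE 0.58, edgeR adjusted p = 0.151). Cdh5, which encodes vascular endothelial cadherin, was at 12.8, 19.6 and 28.04 in WT and 4.08, 5.47 and 15.4 CPM in cD2KO. Here fl128 lay above c124, the log2 fold change was -1.24 (SE 0.49, edgeR adjusted p = 0.344), and the unadjusted p was no longer under 0.05 when c129, c130, fl125 or fl126 was left out.

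The tight junction gene Cldn5 had 8, 30 and 34 counts in WT and 1, 0 and 5 counts in cD2KO, or 2.05, 11.1 and 11.8 against 0.453, 0 and 1.57 CPM. Its log2 fold change was -3.46 (SE 0.96, edgeR adjusted p = 0.144), and the ratio of pooled counts was 10.5 (exact 95% interval 4.60 to 29.6). Adgrl4, an adhesion G protein-coupled receptor of endothelium, had 3, 25 and 40 counts in WT and 1, 2 and 2 in cD2KO, or 0.768, 9.23 and 13.8 against 0.453, 0.684 and 0.628 CPM. Both genes separated the groups, but in Adgrl4 mouse c124 was at the level of 3 counts and stood next to the cD2KO mice. The Adgrl4 log2 fold change, -3.62 (SE 1.001, edgeR adjusted p = 0.143), was the lowest of the 29 genes, and the ratio of pooled counts was 11.9 (exact 95% interval 4.86 to 37.8). By limma voom it did not pass, with an unadjusted p of 0.177.

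Podxl, a sialomucin of the luminal surface, was at 6.40, 15.5 and 15.6 in WT and at 1.36, 1.71 and 2.83 CPM in cD2KO. All cD2KO mice were well under c124, with a log2 fold change of -2.60 (SE 0.59, edgeR adjusted p = 0.0997). Ly6c1, a surface protein of capillary endothelium that monocytes also carry, was at 13.8, 58.3 and 55.4 in WT and 2.72, 8.89 and 10.05 CPM in cD2KO. Its groups did not overlap, with a log2 fold change of -2.50 (SE 0.60, edgeR adjusted p = 0.136), although limma voom gave an unadjusted p of 0.0575. Adgrf5, an adhesion receptor with higher counts, was at 65.3, 73.1 and 79.95 in WT and 57.5, 34.9 and 34.5 CPM in cD2KO. It fell by 0.79 on the log2 scale (SE 0.24, edgeR adjusted p = 0.190), the least of the genes that passed the threshold.

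The other 6 junction and surface genes did not pass it. Esam, an adhesion molecule of tight junctions, was at 128.8, 76.4 and 143 in WT and at 144.5, 145 and 147 CPM in cD2KO, where the mice hardly differed. All cD2KO mice were just above c130, and the log2 fold change was 0.32 (SE 0.23, edgeR adjusted p = 0.632). Cd93, a surface glycoprotein of endothelium that monocytes also express, was at 64.0, 125 and 85.8 in WT and 33.5, 67.0 and 91.4 CPM in cD2KO, with overlap and a log2 fold change of -0.51 (SE 0.35, edgeR adjusted p = 0.627). Icam2, Plvap, Emcn and Mmrn2 had log2 fold changes of -0.87, -0.85, -0.81 and -2.09 with standard errors from 0.61 to 1.23. Mmrn2 had 1 count in c124 and 63 and 59 in the other WT mice, against 3 to 17 in the cD2KO mice, so that c124 was below every cD2KO mouse.

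The transcription factors that specify endothelium had few counts in all 6 libraries. Erg, Sox7 and Sox18 had between 0 and 5 counts in every mouse, too few to compare. Sox17, an arterial factor, had 2, 11 and 17 counts in WT and 0, 2 and 7 in cD2KO, and with the lowered minimum a log2 fold change of -1.72 (SE 1.21, edgeR adjusted p = 0.661). No member of this group could be called at this depth.

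Of the 4 genes of lipid and water transport, all tested, 3 were lower and the median log2 fold change was -0.99. Fabp4, Aqp1 and Cd36 had the highest counts of the list. Fabp4, a fatty acid-binding protein of capillaries and adipocytes, was at 227, 284 and 259 in WT and 187.5, 97.8 and 111 CPM in cD2KO. Cd36, the fatty acid translocase, which macrophages and muscle also express, was at 188, 286 and 146 in WT and 86.04, 99.5 and 121 CPM in cD2KO. Neither gene overlapped between the groups, and both were close to 2 times higher in WT. Their log2 fold changes were -0.96 (SE 0.24) for Fabp4 and -1.01 (SE 0.25) for Cd36, with edgeR adjusted p of 0.123 and 0.112. Gpihbp1, which carries lipoprotein lipase to the lumen of capillaries, was at 16.6, 32.5 and 49.5 in WT and 5.43, 3.08 and 12.9 CPM in cD2KO. It did not overlap either, with a log2 fold change of -2.17 (SE 0.52, edgeR adjusted p = 0.123).

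Aqp1, a water channel of capillaries, was not called. It was at 135, 138 and 239 in WT and 128, 157 and 219 CPM in cD2KO, and the groups overlapped. Its log2 fold change was -0.02 (SE 0.26, edgeR adjusted p = 0.985), and its sign turned in 5 of the alternative settings.

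Among the secreted and signaling proteins 2 of the 4 tested genes were lower. Egfl7, a secreted factor of endothelium, was at 27.6, 31.4 and 31.1 in WT and 14.5, 4.45 and 18.2 CPM in cD2KO. In this gene c124 stood with the other WT mice, and the log2 fold change was -1.28 (SE 0.41, edgeR adjusted p = 0.204). Egfl7 shares 7.37% of its exon bases with Gm20532 on the same strand. Ushbp1, whose transcript is enriched in endothelium, was at 3.33, 13.3 and 10.04 in WT and 1.81, 0.342 and 3.45 CPM in cD2KO, so that fl128 was just above c124. Its log2 fold change was -2.19 (SE 0.77, edgeR adjusted p = 0.259), and its unadjusted p was over 0.05 by limma voom and without c129 or fl126.

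Vwf, the von Willebrand factor of larger vessels and platelets, had a log2 fold change of -0.11 (SE 0.44) and overlapped between the groups. Rasip1, needed for the vessel lumen, had 14, 54 and 91 counts in WT and 1, 4 and 28 in cD2KO, a log2 fold change of -2.27 (SE 1.03) that did not pass the threshold. It shares 20.4% of its exon bases with Izumo1 on the same strand. Nos3, the endothelial nitric oxide synthase, had 0, 9 and 2 counts in WT and 0, 1 and 3 in cD2KO, and Bmx, a kinase of arterial endothelium, had 0, 0 and 4 against 0, 1 and 8, so neither could be compared.

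Flt1 was 1 of the 16 endothelial genes that fell, and its change lay within the range of the 28 others tested. The median log2 fold change of the 28 others was -1.18, which is 0.53 above that of Flt1, and 11 of the 28 had a lower log2 fold change than Flt1. For 20 of the 28 the difference from Flt1 was under 2 joint standard errors, with the covariance of the genes left aside. Flt1 minus that median ran from -0.72 to 0.0349 with each mouse left out, and the sign turned without fl128.

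Flt1 and the rest were both low in c124, but they placed the cD2KO mice in a different order. Set against the mean of the WT mice on the log2 CPM scale, Flt1 was at -0.57, 0.24 and 0.34 in c124, c129 and c130 and at -1.32, -2.28 and -1.44 in fl125, fl126 and fl128. The median of the 28 others was -0.70, 0.46 and 0.38 in the WT mice and -1.69, -1.54 and -0.76 in the cD2KO mice. Among the cD2KO mice Flt1 was highest in fl125 and lowest in fl126, and the others were highest in fl128 and lowest in fl125. They parted most in fl126 and fl128, where Flt1 was lower than the median of the others by 0.75 and 0.68.

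The log2 ratio of Flt1 to Kdr was 1.81, 1.74 and 1.37 in the WT mice and 1.93, 1.13 and 1.33 in the cD2KO mice, and the groups overlapped. Its mean differed by -0.17 (two-sided exact permutation test, p = 0.6, adjusted p = 0.7 over 3 ratios). With 3 mice in each group this exact test cannot give a p under 0.1. The ratio of Flt1 to Pecam1 differed by 0.35 (exact permutation test, p = 0.7, adjusted p = 0.7) and that to Cdh5 by -0.33 (exact permutation test, p = 0.6, adjusted p = 0.7). These ratios also overlapped, with SDs between cD2KO mice of 0.806 and 0.968 on the log2 scale. That none of the 3 tests passed does not show that Flt1 and these genes moved alike.

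**Figure D3:**
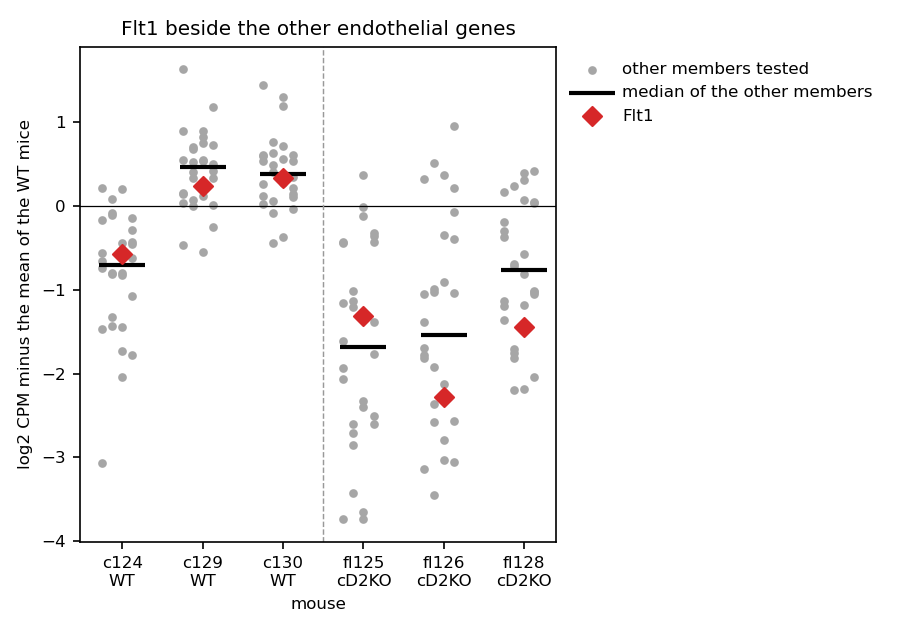
Flt1 (red diamonds) and the 28 other endothelial genes tested (gray points) in each mouse, as log2 CPM minus the mean of the WT mice, with the median of the others as a black bar. Flt1 was at -1.32, -2.28 and -1.44 in the cD2KO mice, where the median of the others was -1.69, -1.54 and -0.76.

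Summed over the listed genes, the level was 1093, 1641 and 1604 CPM in WT and 842, 829 and 1041 CPM in cD2KO, a ratio of 0.625. The sum separated the groups, with c124 and fl128 next to each other. Fabp4, Cd36, Aqp1 and Esam hold much of this sum, and without them the ratio was 0.513. Together the listed genes took a share of each library of 0.0815% to 0.171%. In fl125, the shallowest library, 13 of the 33 genes kept had 3 counts or fewer, and 8 in fl126 and 3 in fl128 did. In the WT mice these were 7 genes in c124, the deepest library, and 1 each in c129 and c130.

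The growth factors and partners of these receptors, a list of 19 VEGF and angiopoietin genes of which 13 were tested, had no common direction. Their median log2 fold change was -0.05, with 2 genes lower and 2 higher, where 6.62% and 5.34% of all genes tested were. Nrp1 and Nrp2 encode the neuropilins, coreceptors of VEGF that other cell types also express. Nrp1 was at 326, 278 and 365.5 in WT and 191, 218 and 159 CPM in cD2KO, without overlap, and fell by 0.77 on the log2 scale (SE 0.20, edgeR adjusted p = 0.129). Nrp2 fell by 0.69 (SE 0.22, edgeR adjusted p = 0.204), from between 59.1 and 72.3 CPM to between 33.5 and 46.6 CPM.

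Hif1a, a transcription factor of the hypoxia response, rose by 0.55 on the log2 scale, and Angpt2, the angiopoietin that can oppose Tek, by 0.81 (SEs 0.22 and 0.37, edgeR adjusted p = 0.346 and 0.398). Vegfa, the main ligand of Kdr, had a log2 fold change of 0.03 with a standard error of 0.50. Vegfb, Vegfd, Pgf and Angpt1, further ligands, had log2 fold changes of -0.05, -0.91, 0.49 and -0.52, and those of Epas1, Notch4, Plxnd1 and Angptl4 were 0.42, -1.01, 0.39 and -0.82. None of these 9 genes passed the threshold. Vegfc, Flt4, Dll4, Apln, Aplnr and Esm1 were not tested, at group means of at most 1.73 CPM.

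Other cell types of muscle were followed by their own markers, and these moved too. Of 16 myeloid genes tested 5 were lower, where 6.62% of all genes tested were, and 0 were higher, where 5.34% were. The median log2 fold change of the 16 was -1.85. In 12 of the 16 all cD2KO mice lay below all WT mice, where 10.04% of all genes did so. The summed level of the 16 was 4410, 8150 and 5430 CPM in WT and 226, 2440 and 2890 CPM in cD2KO. Ptprc, which encodes CD45, was among them with a log2 fold change of -1.98 (SE 0.60, edgeR adjusted p = 0.221), beside Fcgr1 and Itgam at -1.82 and -2.32. Of 9 fibroadipogenic genes tested 2 were lower, Gsn and Lum at -0.61 and -1.10, and Pdgfra had a log2 fold change of -1.01 (SE 0.65) that did not pass. Cells of these types express some of the listed genes, such as Cd36, Ly6c1 and Cd93.

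Mural cells are the pericytes and smooth muscle cells that surround endothelium. Of 14 mural genes tested 7 were higher in cD2KO, where 5.34% of all genes tested were, and 0 were lower, where 6.62% were. The median log2 fold change of the 14 was 0.59. Their sum was 12600, 7710 and 10000 CPM in WT against 15800, 16800 and 23300 CPM in cD2KO. Cnn1, Tagln and Mylk, contractile genes, rose by 1.44, 0.95 and 1.02 on the log2 scale (edgeR adjusted p = 0.0885, 0.0885 and 0.0997), as did Myh11 and Acta2 by 0.996 and 1.17. Rgs5, Pdgfrb, Kcnj8 and Abcc9 were mural genes that did not pass the threshold, with log2 fold changes of 0.0025, -0.06, -0.36 and -0.23 (SEs 0.40, 0.22, 0.27 and 0.33). Cspg4, Higd1b and Ndufa4l2, the other mural genes that did not pass, had positive log2 fold changes of 0.25, 0.34 and 0.43 (SEs 0.21, 0.24 and 0.24).

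Of 12 muscle stem cell genes tested 3 were higher and 1 was lower, where 5.34% and 6.62% of all genes tested were, and their median log2 fold change was 0.27. Itga7, Cdh15 and Myf5 rose by 0.71, 0.51 and 0.59 on the log2 scale (SEs 0.21, 0.22 and 0.26, edgeR adjusted p = 0.171, 0.381 and 0.399). Cxcr4 fell by 0.92 (SE 0.30, edgeR adjusted p = 0.2025). Pax7 had a log2 fold change of 0.47 (SE 0.32) and Vcam1 of -0.09 (SE 0.20). Among 8 myofiber genes tested 1 was called, Myh2, which rose by 0.70 on the log2 scale (SE 0.32, edgeR adjusted p = 0.4175). Of the 5 red cell genes and the 1 lymphoid gene tested 0 passed edgeR's test on the unadjusted p. No myeloid or mural marker was at 0 counts in all mice. The part of these other cell types in the levels of the endothelial genes was not tested.

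**Figure D4:**
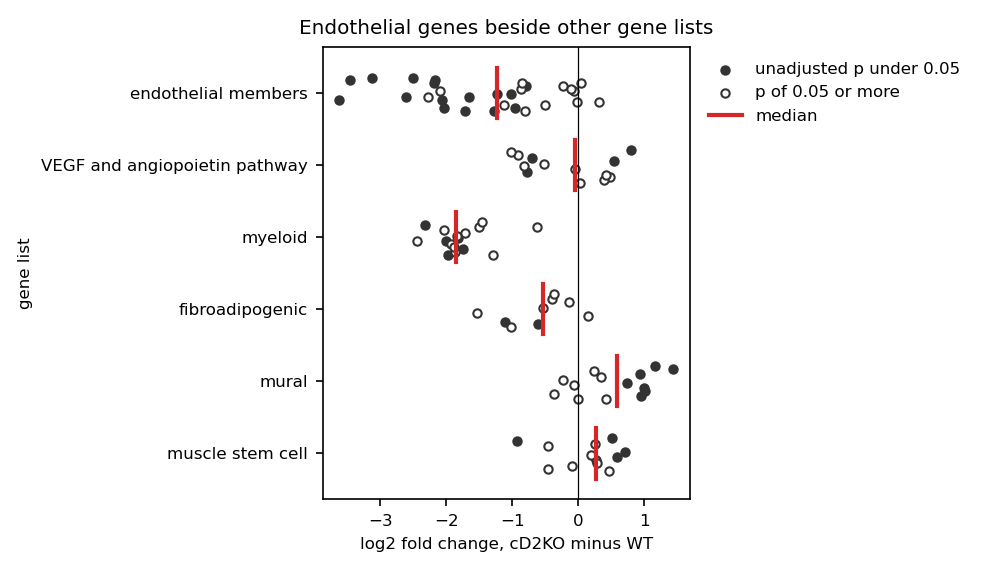
Log2 fold change (cD2KO minus WT) of each tested gene of the endothelial list and of 5 other lists, with the median of each list as a red bar and filled points for an unadjusted p under 0.05. The medians were -1.24 for the endothelial genes, -0.05 for the VEGF and angiopoietin genes, -1.85 for myeloid, -0.53 for fibroadipogenic, 0.59 for mural and 0.27 for muscle stem cell genes.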

How the data were processed

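RNA of sorted qMuSCs from 6 mice was sequenced, and the authors deposited raw counts of reads per gene, not normalized, with a column per mouse. Per the labels, a commercial digital RNA-seq service made the libraries, and the submitters' processing notes name bcl2fastq, STAR 2.6.0a and HTSeq 0.9.1 with mm10. The annotation, use of strand and removal of duplicates are not given in the sources used here, so overlapping genes are uncertain. Nothing says how mice were assigned to sequencing runs.

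Symbols and coordinates came from GENCODE M21, which held 31011 of 31053 gene identifiers. The expression minimum of the study, a DESeq2 base mean above 10, was kept. The counts were scaled by TMM, and edgeR 4.0.16 in R 4.3.3 gave quasi-likelihood tests with robust estimation and no covariate. These tests return no standard error. Each one given here is the absolute log2 fold change divided by the square root of the F statistic of the test. Calls were made on the unadjusted p, at 0.05 as in the study, with Benjamini-Hochberg values across the tested genes beside them. Log2 CPM had a prior count of 2. Ratios of genes were compared with exact permutation tests over mice. No test was run over a list.

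Every listed gene was named, with values in every mouse for Flt1, Kdr, Pecam1, Cdh5, the genes with an unadjusted p under 0.05 and the 5 genes with the highest mean CPM. Of other lists the VEGF and angiopoietin genes, a few standard markers and up to 3 genes with the smallest p under 0.05 were named, apart from a result not reported here. Values by mouse for genes outside these, and Kcnj8, Abcc9, Cspg4, Higd1b and Ndufa4l2, were chosen after they were seen. The members and lists were chosen with earlier results of these data known.

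Alternatives were DESeq2 1.42.0, limma 3.58.1 voom, other scalings, other minimums, non-robust estimation, other prior counts, adjusted thresholds and leaving out each mouse. In simulated data made from the 11633 genes tested here, a log2 change of 1 was called in 75% of such genes on the unadjusted p and in 19% on the adjusted p, and a log2 change of 2 in 95% and 73%. Unchanged genes were called in 5.18% and 0.07%. The changed genes were drawn at random from all genes tested, so these shares need not hold for the endothelial genes. Every pair of libraries differed by more than sampling noise (chi-square over its degrees of freedom, 8.69 or more). Each library came from its own mouse.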

Additional observations from a re-analysis of the deposited data

How the results depend on the processing

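Of 268 values of 19 named genes under the alternatives, 252 kept their direction and side of the threshold. Aqp1 changed sign in 5, at 0.00030 with limma voom, 0.0145 without a minimum, 0.33 without c130, 0.18 without fl125 and 0.0281 without fl126 (-0.26 without fl128), and 11 values of other genes crossed the threshold in the same direction. The count of lower endothelial genes was 7 of 14 tested at a minimum mean of 50, where 505 of all 7353 genes tested were. It was 0 and 2 of 29 where edgeR's adjusted p had to be under 0.05 and 0.1, where 0 and 57 of all 11633 genes passed. With each mouse left out it was 12 to 21 of 26 to 30 tested, where 3.46% to 7.43% of all genes were lower. The count of higher ones was 0 throughout. The median log2 fold change of the endothelial genes tested ran from -1.85 (without fl128) to -0.999 with mice left out. The endothelial genes whose cD2KO mice all lay below were 7 of 14 at a minimum mean of 50, where the share of all genes is not given here. With mice left out they were 11 to 21 of 26 to 30 (21 without c124), where 13.1% to 17.2% of all genes did so. That share is higher with fewer mice. Those all above were 0 with total count scaling and 1 to 2 with mice left out (2 without fl125), again without the share of all genes. Flt1 minus the median of the others was -0.92 at a minimum mean of 50, and ran from -0.72 to 0.0349 (without fl128) with mice left out. The log2 ratio of Flt1 to Pecam1 ran from -0.0628 (without fl125) to 0.73 and that to Cdh5 from -0.86 to 0.0766 (without fl128). Over all genes, 770 were lower and 621 higher. With total count scaling these were 945 and 445, and the median of all genes was -0.08. Lower genes numbered 505 at a minimum mean of 50, 0 and 57 at the adjusted limits of 0.05 and 0.1, and 399 (without c129) to 874 with mice left out, and higher genes 939 without a minimum, 1 and 33 at those limits, and 402 (without fl128) to 933 (without fl125). Apart from the constructions themselves, the cause was not tested. No paired analysis was possible because the labels name the mice without replicate numbers and do not match them between the groups. At 0.768 to 1.36 CPM for 3 counts, genes such as Erg, Sox7, Nos3 and Bmx could not be compared.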

Other observations

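Further genes of particular vessel types, from outside the endothelial list, did not all move in the same direction. Among capillary genes, Lpl, which encodes lipoprotein lipase and is also made by other cells, was at 340, 372 and 398 in WT and 259, 268 and 289.5 CPM in cD2KO, and fell by 0.44 on the log2 scale (SE 0.19, edgeR adjusted p = 0.375). Car4, a carbonic anhydrase of capillaries, had 14, 14 and 23 counts in WT and 2, 0 and 0 in cD2KO, below the expression minimum and without overlap. Cd300lg had 25, 84 and 113 counts in WT and 3, 9 and 47 in cD2KO, with a log2 fold change of -1.92 (SE 0.93) that did not pass the threshold, and Rgcc had a log2 fold change of -0.49 (SE 0.25). Btnl9 averaged 2.01 CPM in WT and 0.825 in cD2KO and was not tested.

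Of 5 arterial genes tested Gja4, a connexin that smooth muscle also expresses, rose from between 47.2 and 81.9 CPM to between 95.8 and 130 CPM, by 0.73 on the log2 scale (SE 0.23, edgeR adjusted p = 0.202). Hey1, Efnb2, Sema3g and Unc5b had log2 fold changes from -0.41 to 0.63 and did not pass, and Gja5 had 0 counts in every mouse. Of 4 venous genes tested by edgeR 0 passed on the unadjusted p, with Nr2f2 at 0.27 on the log2 scale. Among lymphatic genes, Lyve1, which macrophages of muscle also carry, was at 230, 511 and 370 in WT and 12.7, 60.9 and 98.9 CPM in cD2KO, and fell by 2.67 on the log2 scale (SE 0.76, edgeR adjusted p = 0.293). Prox1 and Pdpn, also lymphatic genes, had log2 fold changes of 0.04 and 0.03 (SEs 0.31 and 0.27).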
